A study of Mus musculus with 3 samples.

Results

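The genes described here are the 10 core genes of the circadian clock, Arntl, Clock, Per1, Per2, Per3, Cry1, Cry2, Nr1d1, Nr1d2 and Dbp. They were taken by name from the deposited annotation, where each lies in a locus that holds no other gene. The rule used no measured value. The name of Per3 is also carried by another, unspliced locus on the opposite strand, which was kept apart. These are 10 of 20117 loci that hold a protein-coding RefSeq transcript (mRNA loci), and all 10 belong to the 12569 mRNA loci that reached 1 FPKM in any library (FPKM being fragments scaled to exon length and to the mapped fragments of the library). Total RNA of the heart ventricle of C57BL/6 mice was sequenced in 3 libraries, 1 from embryos at E10.5, 1 from embryos at E13.5 (days of gestation) and 1 from adults at 8 weeks. No stage has a replicate, so nothing below can be set against a spread between replicates, and no p-values are given. It is not given in the sources used here at which hour the animals were killed, under which light cycle they were kept, or how many animals went into a library.

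The mammalian clock is a loop of transcription and translation that runs in most cells of the body. ARNTL (also called BMAL1) and CLOCK bind E-box elements as a pair and activate the Period and Cryptochrome genes, whose proteins return to the nucleus and inhibit the pair. In another arm of the loop the REV-ERB receptors, encoded by Nr1d1 and Nr1d2, repress Arntl through ROR elements, while ROR receptors activate it at the same sites. DBP is a transcription factor that is driven by the E-box arm and passes the rhythm on through D-box elements. In the adult heart these mRNAs swing over the day, with Arntl in a phase opposite to Nr1d1, Dbp and the Period genes, whereas in embryonic tissues coordinated rhythms of these genes are weak or absent until late gestation. A level in 1 library of unknown hour is therefore a point on an unknown curve, and the effects of stage and of hour cannot be told apart.

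The depth was estimated from the most frequent low value of unspliced loci, assumed to be 1 fragment, since FPKM are not counts. At this estimate 1 FPKM over 1 kb stood for about 14.5, 25.8 and 17.8 fragments in the libraries of E10.5, E13.5 and adult ventricle, and the clock genes rested on between 56 fragments (Nr1d1 at E13.5) and 5870 (Nr1d2 in the adult). The 5 cardiomyocyte markers had medians of 626, 1522 and 3148 FPKM in this same order of stages, which is kept for all triplets of values below, with each of them at 18.8 FPKM or more in every library. The 5 erythroid markers summed to 6758, 16348 and 24.5 FPKM and the 5 macrophage markers to 5.93, 32.9 and 122 FPKM. Fibroblast markers summed to 214, 365 and 468 FPKM and endothelial markers to 234, 180 and 249 FPKM. The fibroblast markers had medians of 18.3, 33.3 and 16.2 FPKM, the adult sum being mostly Dcn (49.5, 75.9 and 351). Smooth muscle markers summed to 1325, 1234 and 209 FPKM. Of these, Acta2, Tagln and Cnn1 were lowest in the adult, whereas Myh11 (0.112, 0.893 and 18.1 FPKM) and Smtn were highest there. Markers of fat cells summed to at most 0.519 FPKM in any library, with Plin1 listed at 0 in all 3, and those of liver to at most 7.99 FPKM. In such bulk samples fewer cells of a type and less RNA per cell cannot be told apart, and the part of the cell makeup in the values below was not tested.

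The activator genes were both highest in the adult library, and Clock was above Arntl at each stage. Arntl (chromosome 7, 113207465 to 113314126, plus strand) was at 3.20 FPKM in the E10.5 ventricle, 4.35 in the E13.5 ventricle and 8.66 in that of the adult. Its level was thus lowest in the earliest library and highest in the latest. The adult value was 2.70-fold that of E10.5, a difference of 1.20 on the log2(FPKM + 1) scale, which is used for all differences below and understates the change of low genes. Clock (chromosome 5, 76209255 to 76304756, minus strand), which encodes the partner of ARNTL, was at 19.7, 11.8 and 26.4 FPKM. Its lowest value was that of E13.5, and the adult exceeded E10.5 by 1.34-fold (difference 0.40) and E13.5 by 2.24-fold (1.10). Arntl is the target of the REV-ERB arm, and its RefSeq promoter is shown because it held the core of the ROR element, TAGGTCA, which was found in 2.61% of all 32841 promoters of the same length (300 bases, from 250 before to 50 after a start). The sequence is chr7:113207261-113207560 of GRCm38.p6, plus strand, belonging to the second of 2 starts, with the core in capitals, beginning 31 bases after the start. The window of the first start, at 113207465, did not hold the core. This and the windows below are written 5′ to 3′ on the strand of the gene.
Arntl promoter: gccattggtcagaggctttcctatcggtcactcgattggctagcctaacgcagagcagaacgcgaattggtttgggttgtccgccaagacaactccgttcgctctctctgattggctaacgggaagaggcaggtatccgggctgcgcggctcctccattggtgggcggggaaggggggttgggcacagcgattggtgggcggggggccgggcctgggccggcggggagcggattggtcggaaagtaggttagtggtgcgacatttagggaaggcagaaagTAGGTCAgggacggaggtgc

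The Period genes, whose proteins inhibit the activators, did not move as a group. Per1 (chromosome 11, 69095240 to 69110909, plus strand) was at 4.12, 1.49 and 3.20 FPKM, and Per2 (chromosome 1, 91415651 to 91459328, minus strand) was at 3.72, 1.62 and 2.72 FPKM. Both were thus lowest at E13.5, with the adult value somewhat under that of E10.5. The ratio of Per1 to Per2 stayed near 1, at 1.11, 0.923 and 1.18. From E10.5 to E13.5 the difference was -1.04 for Per1 and -0.85 for Per2. Between E10.5 and adult ventricle Per1 differed by -0.29 and Per2 by -0.34, which became 0.04 and -0.03 after median-of-ratios scaling, so no direction is given for either. Per3 (chromosome 4, 151002890 to 151044622, minus strand), the Period gene that is dispensable for the core loop, stood apart from its paralogs with 5.11, 3.42 and 15.2 FPKM. Its adult value was 2.97-fold that of E10.5 (difference 1.40) and 4.44-fold that of E13.5 (1.87), while those of Per1 and Per2 lay at 0.776-fold and 0.731-fold of E10.5.

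The promoters of Per1 and Per3 are shown because these paralogs differed in level and in the elements a search found. The upstream of the 2 Per1 promoters held an E-box, CACGTG (7.15% of all promoters), 166 bases before the start, and a D-box, TTATGCAA (0.74%), 24 bases before it. The Per3 promoter held no E-box but 2 copies of another D-box form, TTATGTAA (0.94%), beginning 205 and 158 bases before the start. This form was added to the search after the promoters had been read. Both strands were searched, the matches shown do not overlap each other, and a match is a description of letters and not of binding. A gap between the paralogs in these letters says nothing of the factors. The first sequence is chr11:69098699-69098998, plus strand, and the second is chr4:151044616-151044915, minus strand, both GRCm38.p6, with the matches in capitals.
Per1 promoter: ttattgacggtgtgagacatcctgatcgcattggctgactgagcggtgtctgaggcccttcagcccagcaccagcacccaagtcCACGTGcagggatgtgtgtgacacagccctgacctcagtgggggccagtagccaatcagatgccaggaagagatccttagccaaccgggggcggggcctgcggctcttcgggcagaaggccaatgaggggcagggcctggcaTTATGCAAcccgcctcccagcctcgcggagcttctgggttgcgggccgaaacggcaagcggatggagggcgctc
Per3 promoter: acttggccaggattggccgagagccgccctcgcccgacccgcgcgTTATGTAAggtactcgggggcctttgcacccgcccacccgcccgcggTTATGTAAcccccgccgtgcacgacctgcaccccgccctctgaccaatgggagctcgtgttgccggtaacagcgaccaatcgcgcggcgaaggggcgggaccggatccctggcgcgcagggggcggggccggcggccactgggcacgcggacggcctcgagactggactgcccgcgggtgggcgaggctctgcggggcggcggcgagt

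The Cryptochrome genes, whose proteins are the stronger inhibitors of CLOCK and ARNTL, were the only members other than Per1 and Per2 with an adult value under that of E10.5 as deposited. Cry1 (chromosome 10, 85131495 to 85185054, minus strand) was at 5.63, 5.10 and 2.34 FPKM. Both embryonic values thus lay above that of the adult, which was 0.415-fold that of E10.5 and 0.458-fold that of E13.5, differences of -0.99 and -0.87. Cry2 (chromosome 2, 92403474 to 92434069, minus strand) was at 5.04, 4.43 and 4.52 FPKM. It was the steadiest of the 10 genes, with its highest value 1.14-fold its lowest, and its difference from E10.5 to the adult turned from -0.13 to 0.21 with median-of-ratios scaling. Within a library, where scaling has no effect, Cry1 was at 1.12 and 1.15 times Cry2 in the embryonic ventricles and at 0.517 times in the adult one. Cry1 was the sole member besides Per1 with an E-box in its promoter window, 60 bases before the start, next to the variant CACGTT (4.69% of all promoters) 79 bases before it, read on the other strand. The window is shown for this pair of elements (chr10:85185005-85185304, minus strand, GRCm38.p6).
Cry1 promoter: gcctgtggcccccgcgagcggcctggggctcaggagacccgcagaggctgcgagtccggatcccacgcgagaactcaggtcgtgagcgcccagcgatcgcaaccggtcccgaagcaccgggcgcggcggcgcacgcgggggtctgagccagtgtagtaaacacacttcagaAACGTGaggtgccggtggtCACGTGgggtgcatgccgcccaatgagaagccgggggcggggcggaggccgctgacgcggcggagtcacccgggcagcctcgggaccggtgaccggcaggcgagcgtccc

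The REV-ERB receptor genes had the highest adult levels relative to E10.5, together with Dbp. Nr1d1 (chromosome 11, 98767928 to 98775317, minus strand) was at 2.71, 0.831 and 18.4 FPKM. The lowest value was that of E13.5, which rested on about 56 fragments, against 104 and 861 in the others. The adult was 6.80-fold above E10.5 (difference 2.39) and 22.2-fold above E13.5 (3.41). Nr1d2 (chromosome 14, 18199842 to 18239106, minus strand), which encodes REV-ERB beta, was at 9.88, 9.67 and 48.9 FPKM. Its embryonic values were near each other, with an adult value 4.95-fold that of E10.5 (2.20) and 5.06-fold that of E13.5 (2.23). Nr1d2 exceeded Nr1d1 in each library, by 3.64-fold, 11.6-fold and 2.65-fold. The Nr1d1 promoter is shown because Nr1d1 had the widest range of the 10 genes and its window held 1 variant E-box, CACGTT, 28 bases before the start on the other strand (chr11:98775328-98775627, minus strand, GRCm38.p6). No searched motif was found in the window of Nr1d2.
Nr1d1 promoter: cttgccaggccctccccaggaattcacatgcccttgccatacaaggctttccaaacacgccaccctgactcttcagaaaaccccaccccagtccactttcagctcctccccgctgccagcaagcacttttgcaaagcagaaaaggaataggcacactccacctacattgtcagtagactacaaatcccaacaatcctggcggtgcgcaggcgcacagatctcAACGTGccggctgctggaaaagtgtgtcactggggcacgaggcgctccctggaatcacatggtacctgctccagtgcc

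Dbp (chromosome 7, 45705110 to 45710931, plus strand), the output factor, was at 3.53, 3.65 and 20.8 FPKM. The embryonic libraries were level with each other, and the adult was 5.88-fold above E10.5 (difference 2.26) and 5.69-fold above E13.5 (2.23). Its promoter window held none of the searched letters. RefSeq promoters were found for 9 of the 10 genes (13 windows), and that of Per2 was missing. Beyond the motifs named above, Cry2 held a variant E-box, and TTACGTAA, TGGGTCA and the cyclic AMP response element TGACGTCA, present in 0.12%, 3.98% and 1.79% of all promoters, were in no member's window.

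**Figure D1:**
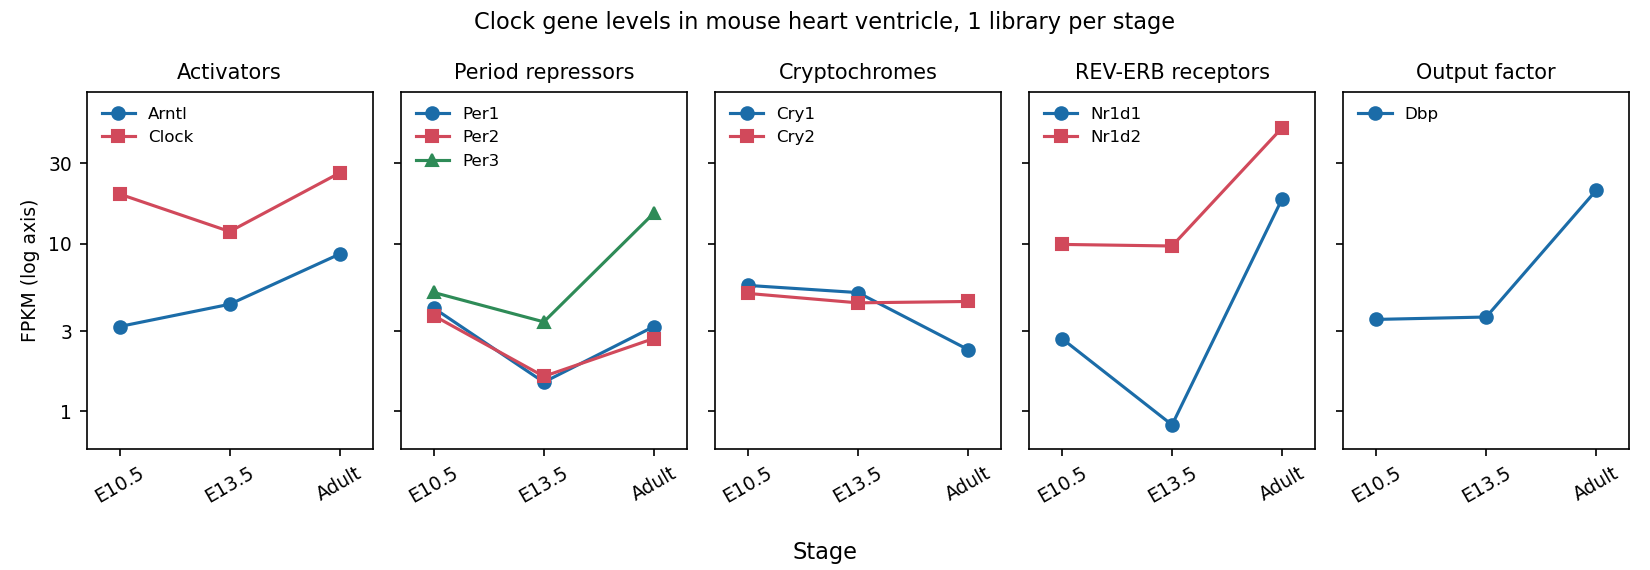
FPKM (log axis) of the 10 clock genes in the E10.5, E13.5 and adult libraries, in 5 panels by role, 1 point per library with lines joining the points of a gene. Nr1d2 reaches 48.9 and Dbp 20.8 FPKM in the adult, while Per1, Per2 and Nr1d1 dip at E13.5 and Cry1 is lowest in the adult at 2.34.

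To see how these differences compare with the rest of the transcriptome, the members were counted past a difference of 1, a 2-fold change at high levels. From E10.5 to the adult, 5 of 10 clock genes were higher by 1 or more (Arntl, Per3, Nr1d1, Nr1d2 and Dbp), against 14.8% of all mRNA loci tested, and 0 of 10 were lower, against 27.3%. From E13.5 to the adult, 5 were higher (Clock, Per3, Nr1d1, Nr1d2 and Dbp), against 13.0%, and 0 were lower, against 32.1%. From E10.5 to E13.5, 0 were higher, against 5.89%, and 2 were lower (Per1 and Nr1d1), against 4.85%. The comparisons share libraries and are not independent, and with 1 library a stage these counts describe the libraries and not the stages. The median difference of the 10 genes was 0.80 from E10.5 to the adult, where the median of all mRNA loci was -0.40. It was 0.98 from E13.5 to the adult, beside -0.50, and -0.31 from E10.5 to E13.5, beside 0.17.

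The adult differences of 3 members lay near the top of the distribution. From E10.5 to the adult, the difference of Nr1d1 was above that of 96.2% of mRNA loci, that of Dbp above 95.7% and that of Nr1d2 above 95.4%. Per3 followed at 89.9%, Arntl at 87.8% and Clock at 75.3%. Per1 and Per2 lay near the middle at 54.3% and 52.1%, and Cry1 at 27.6%. Cry1 (-0.99) was also the gene nearest to a difference of -1 without reaching it. With the deposited scaling more mRNA loci were thus lower than higher in the adult. After median-of-ratios scaling the adult was past a difference of 1 above E10.5 at 20.0% of mRNA loci and past it below E10.5 at 18.4%, and the clock genes counted 5 and 0, as before. From E13.5 to the adult that scaling gave 7 higher and 0 lower, beside 20.8% and 18.9% of mRNA loci.

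**Figure D2:**
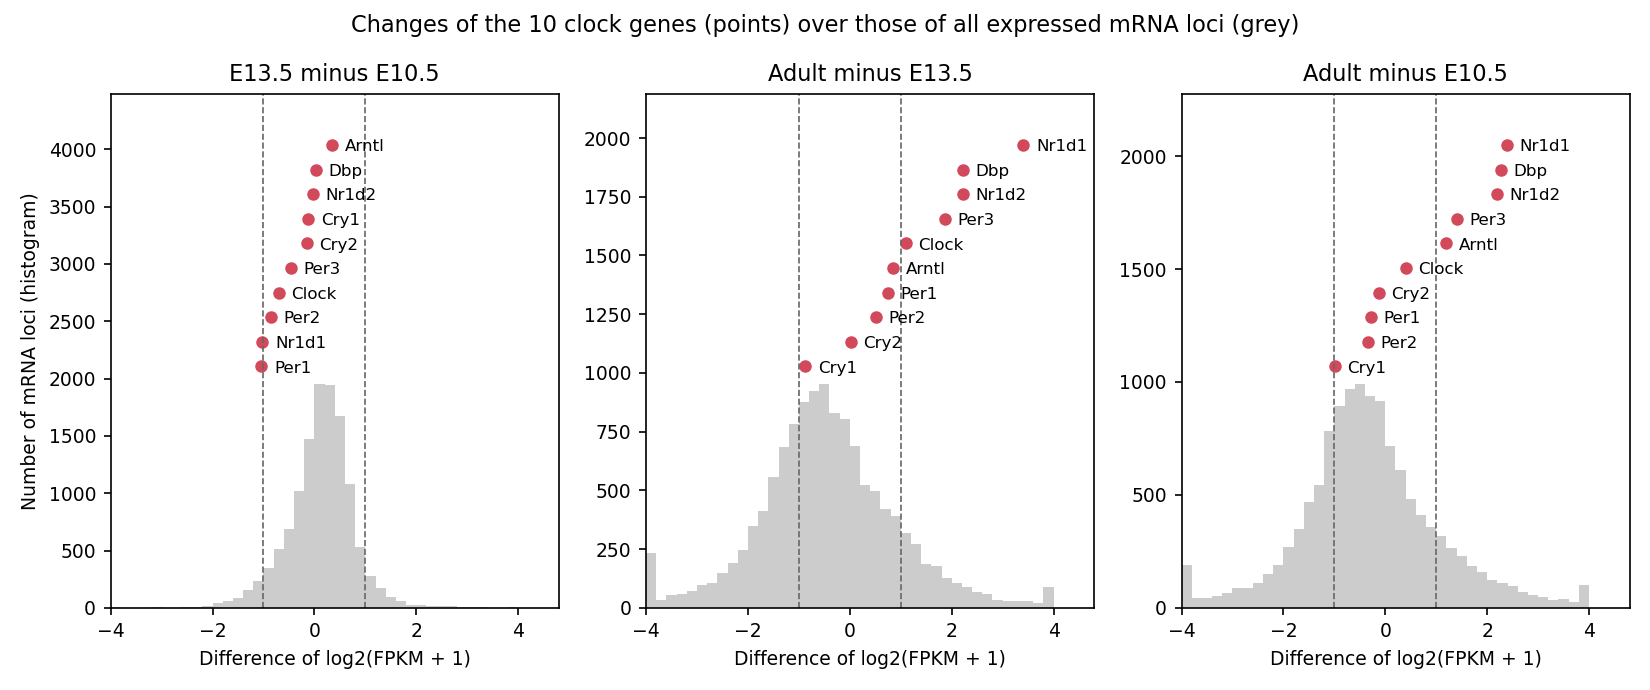
Differences of log2(FPKM + 1) between libraries for all 12569 expressed mRNA loci (grey histogram, number of loci on the vertical axis, with values past 4 in either direction gathered in the end bars) and for the 10 clock genes (points, stacked above for legibility at their own horizontal position). Dashed lines mark differences of -1 and 1. In both comparisons with the adult 5 points lie right of 1, with Nr1d1 farthest at 3.41 and 2.39.

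The E13.5 library differed from the others in a way that follows transcript length, so the low E13.5 values were set against loci of like length. From E10.5 to E13.5 the median difference was 0.56 for 817 mRNA loci with matched transcripts under 1000 nt, 0.28 for 2844 loci of 2000 to 3000 nt, -0.05 for 2521 loci of 4000 to 6000 nt and -0.63 for 578 loci of 8000 nt or more. The Clock transcript has 8939 nt, and its difference of -0.69 lay 0.07 under the median of its length class. The low E13.5 value of Clock was thus shared with transcripts of its length. For Per1 (4660 nt) and Per2 (5837 nt) the difference relative to the length class was -0.99 and -0.80, and for Nr1d1 (2627 nt) it was -1.30. These 3 genes were therefore low at E13.5 also beside loci of like length. Per3 (5953 nt) lay at -0.42, Dbp (1678 nt) at -0.38 and Arntl (2761 nt) at 0.06 of theirs. For the adult against E10.5 the medians of all length classes lay between -0.41 and -0.38, and no such dependence was seen in the medians. The share of loci higher by 1 or more there was 18.0% in the shortest class and 9.86% in the longest. The share lower was 31.5% and 24.9%. From E13.5 to the adult, Clock lay 0.84 above the median of its length class, short of 1, whereas Per1 (1.09) and Arntl lay more than 1 above theirs, so the comparison with loci of like length changes which genes are counted there.

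**Figure D3:**
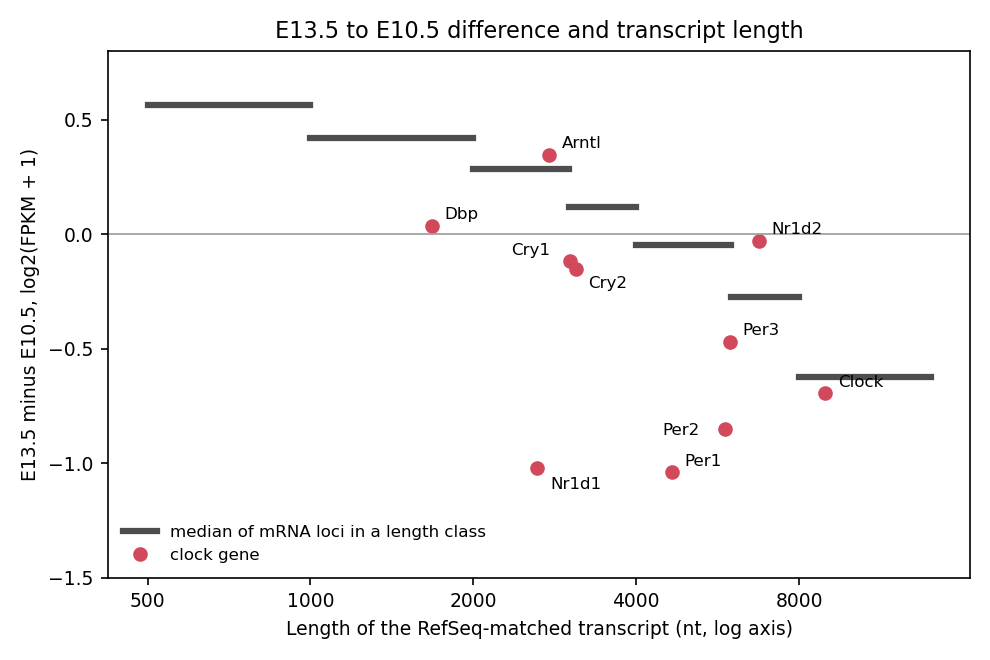
Difference from E10.5 to E13.5 on the log2(FPKM + 1) scale against the length of the RefSeq-matched transcript (log axis) for the 10 clock genes (points), with the median of all expressed mRNA loci in each of the length classes (bars, the first and last classes being open-ended). The medians step down from 0.56 to -0.63. Clock lies just under its bar, whereas Nr1d1, Per1 and Per2 lie 0.80 to 1.30 under theirs.

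FPKM are per length, which allows the levels of different genes to be ordered within a library, although the E13.5 order also carries the length dependence above. At E10.5 the order ran from Clock (19.7 FPKM) and Nr1d2 (9.88) to 8 genes between 5.63 (Cry1) and 2.71 (Nr1d1). Neighbours among these 8 differed by at most 1.22-fold, so their order is not firm. At E13.5 Clock (11.8) and Nr1d2 (9.67) led again at 1.22-fold of each other, and Per2, Per1 and Nr1d1 formed the lower end at 1.62, 1.49 and 0.831. In the adult Nr1d2 (48.9) came first, followed by Clock (26.4), Dbp (20.8), Nr1d1 (18.4) and Per3 (15.2), then Arntl (8.66), and Cry2, Per1, Per2 and Cry1 stood at the lower end (4.52 to 2.34). Cry1, which came behind Clock and Nr1d2 alone in both embryonic libraries, was the lowest in the adult, where Nr1d1 had moved up from the lowest. These ranks of Cry1 rest on gaps of 1.10-fold, 1.15-fold and 1.16-fold to the nearest gene. That of Nr1d1 at E10.5 rests on 1.18-fold, so the exact ranks are not firm. Of the 9 neighbouring pairs, those at least 1.5-fold apart numbered 2, 3 and 3.

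Ratios to Arntl within a library do not depend on scaling, and they set genes of unlike daily phase side by side. At E13.5 they are not free of the length dependence above, as between Arntl (2761 nt) and Per3 (5953 nt). Dbp was at 1.10, 0.839 and 2.40 times Arntl. Nr1d1 was at 0.846, 0.191 and 2.13 times Arntl. Both thus stood above Arntl in the adult library alone by more than 1.5-fold. Per2, which in a running clock peaks some hours after Nr1d1 and Dbp, was at 1.16, 0.372 and 0.314 times Arntl, and Per1 at 1.29, 0.343 and 0.370 times. Cry1, which peaks later still, was at 1.76, 1.17 and 0.270 times Arntl. In the adult library the genes of the Nr1d1 and Dbp phase were thus above Arntl, and Per1, Per2 and Cry1 were below it. At E10.5, 6 of the 7 ratios to Arntl examined (Dbp, Nr1d1, Per1, Per2, Per3, Nr1d2 and Cry1) lay above 1, the exception being Nr1d1. At E13.5 2 of 7 did, and in adult ventricle 4 of 7. Dbp, Per2 and Per1 at E10.5 were within 1.5-fold of Arntl. Arntl itself lay above 23.5%, 28.2% and 56.7% of expressed mRNA loci, so most loci exceeded it in both embryonic libraries. These counts are therefore a description and are not read as a trait of the clock genes. How far these ratios reflect the hour of sampling was not tested.

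**Figure D4:**
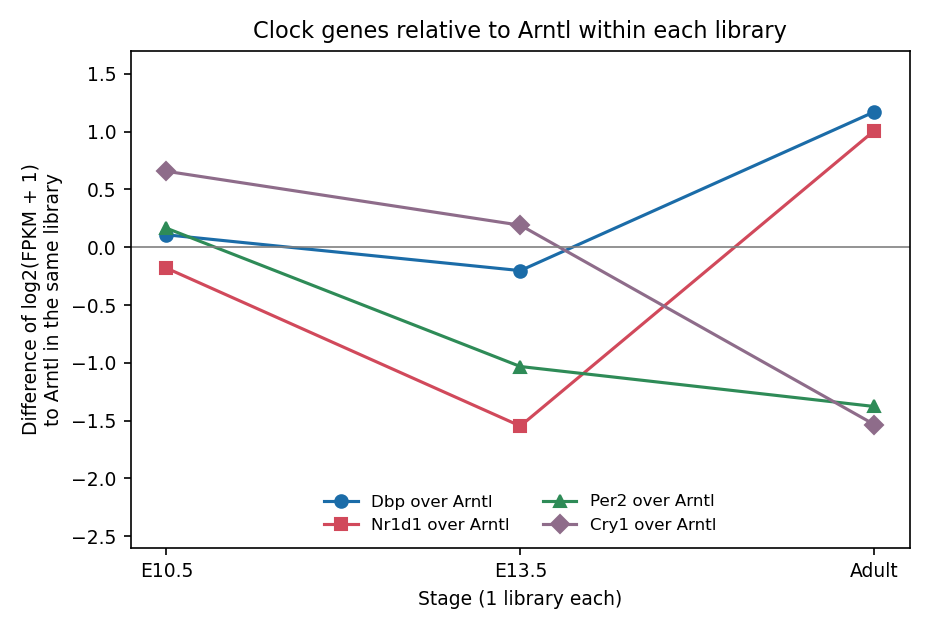
Difference of log2(FPKM + 1) between Dbp, Nr1d1, Per2 or Cry1 and Arntl in the same library (vertical axis), at each of the 3 stages (horizontal axis), 1 point per library. At E10.5 the 4 genes lie between -0.18 and 0.66 of Arntl, and in the adult Dbp and Nr1d1 lie at 1.17 and 1.01 and Per2 and Cry1 at -1.38 and -1.53.

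Some other genes had nearly the same 3 values. Among 12229 single-gene mRNA loci, those nearest to Dbp by the Euclidean distance over the 3 values of log2(FPKM + 1) were Agtr1a (3.07, 3.79 and 18.2 FPKM, distance 0.242), Ppip5k1 (3.96, 3.10 and 23.7, distance 0.287) and Pitpnc1 (3.44, 3.20 and 17.2, distance 0.302). Those nearest to Arntl were Ccdc28a (3.16, 4.34 and 8.54 FPKM, distance 0.024), Kctd12b (3.19, 4.62 and 8.56, distance 0.074) and Tnik (3.53, 4.41 and 8.88, distance 0.115). Within a distance of 0.5 lay 17 loci for Dbp and 89 for Arntl. With 3 libraries a likeness of this kind is a description only.

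The assembled transcripts show where the values of a clock gene may hold more than its full-length mRNA. The 10 loci held 70 transcripts with 37 start sites. Per3 had most of both (17 transcripts, 8 start sites), Clock had 10 transcripts from 5 start sites and Per2 8 from 6, whereas Cry1 had 2 transcripts from a single start. Per1 had 3 start sites, at 69095240, 69098944 and 69100158, of which the last 2 belong to RefSeq transcripts and the first, used by 3 assembled transcripts without a full match, lies upstream of both. Arntl had a start at 113233996 besides that of its RefSeq-matched transcripts at 113207465. The FPKM of a locus is not divided among these transcripts in the values used here.

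Overlap with a gene on the other strand was widest at Clock. Its exons overlapped those of Tmem165 by 5248 nt at the 3′ end, and Tmem165, a Golgi membrane protein gene, was at 72.3, 85.5 and 17.0 FPKM, so it was lower in the adult where Clock was higher. The exons of Dbp overlapped 1267 nt of Sphk2, a sphingosine kinase gene at 5.53, 7.31 and 3.12 FPKM, also lower in the adult. Nr1d1 shared 138 nt with Thra, the thyroid hormone receptor alpha gene at 33.8, 44.0 and 33.5 FPKM. Cry2 shared 149 nt with D930015M05Rik, a spliced locus at 0, 0.0457 and 0.0691 FPKM, at most about 1.5 fragments. The library kit keeps the strand, but whether the strand was used in counting is not stated, and its part in these values was not tested. Unspliced unnamed loci lay in introns of Cry2 (3 loci, at 0.121 to 2.02 FPKM) and, on the strand of Per1, between its first and second start sites (3 loci, at 0 to 1.90 FPKM).

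The loop draws on other genes, and 24 further genes of the pathway were examined, of which 22 reached 1 FPKM in at least 1 library. From E10.5 to the adult, 9 of the 24 were higher by 1 or more, against 14.8% of all mRNA loci, and 5 lower, against 27.3%, with a median difference of 0.26 beside -0.40. The 24 include genes under 1 FPKM, which the shares of all loci leave out, and the lower count was near its share. From E13.5 to the adult the counts were also 9 and 5 (13.0% and 32.1% of all loci), with a median of 0.37, and from E10.5 to E13.5 they were 0 and 1 (Gsk3b, named after its value was seen, a kinase that phosphorylates clock proteins, with a transcript of 8298 nt, at 26.8 and 11.4 FPKM), beside 5.89% and 4.85% of all loci and with a median of 0.10. Rora, which encodes the ROR alpha activator of Arntl, was at 1.81, 0.871 and 6.93 FPKM, 3.84-fold higher in the adult than at E10.5. Among genes driven by the clock, Klf15, a factor of cardiac metabolism, was at 1.60, 2.57 and 10.3 FPKM (difference from E10.5 to the adult 2.12), Nampt, the rate-limiting enzyme of NAD salvage, at 26.9, 22.3 and 119 FPKM (2.10) and Tef, a paralog of Dbp, at 8.31, 12.8 and 28.9 FPKM (1.68). Arntl2, the paralog of Arntl, was at 0.332, 1.66 and 2.54 FPKM (1.41), and Bhlhe40, an E-box repressor, at 7.58, 6.56 and 19.2 FPKM (1.24).

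The members of the wider pathway on the lower side were of other kinds. Wee1, a mitotic kinase gene under clock control, was at 15.6, 15.7 and 4.15 FPKM (-1.69). The genes of the casein kinases that phosphorylate PER proteins were at 32.3, 36.2 and 11.9 FPKM for Csnk1d (-1.37) and at 26.0, 49.6 and 10.4 FPKM for Csnk1e (-1.24). Nfil3, which competes with DBP at D-boxes, was at 14.0, 18.9 and 5.57 FPKM (-1.19), and Timeless, which also acts at replication forks, at 9.06, 11.6 and 3.48 FPKM (-1.17). Both were named after their values had been seen, to complete the count of 5. With median-of-ratios scaling 10 of the 24 were higher and 1, Wee1, was lower in adult ventricle. Under that scaling the other 4 lay between -0.98 and -0.83, while scaling without globin and mitochondrial loci left the same 5 genes lower as with the deposited values. The ratio of Dbp to Nfil3, 2 factors that share the D-box, does not depend on scaling. It was added after the values of both genes had been seen. The ratio moves with Dbp as well as with Nfil3, so it does not show whether Nfil3 itself was lower. Dbp stood at 0.253 and 0.193 times Nfil3 in the embryonic ventricles and at 3.73 times in the adult one.

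**Figure D5:**
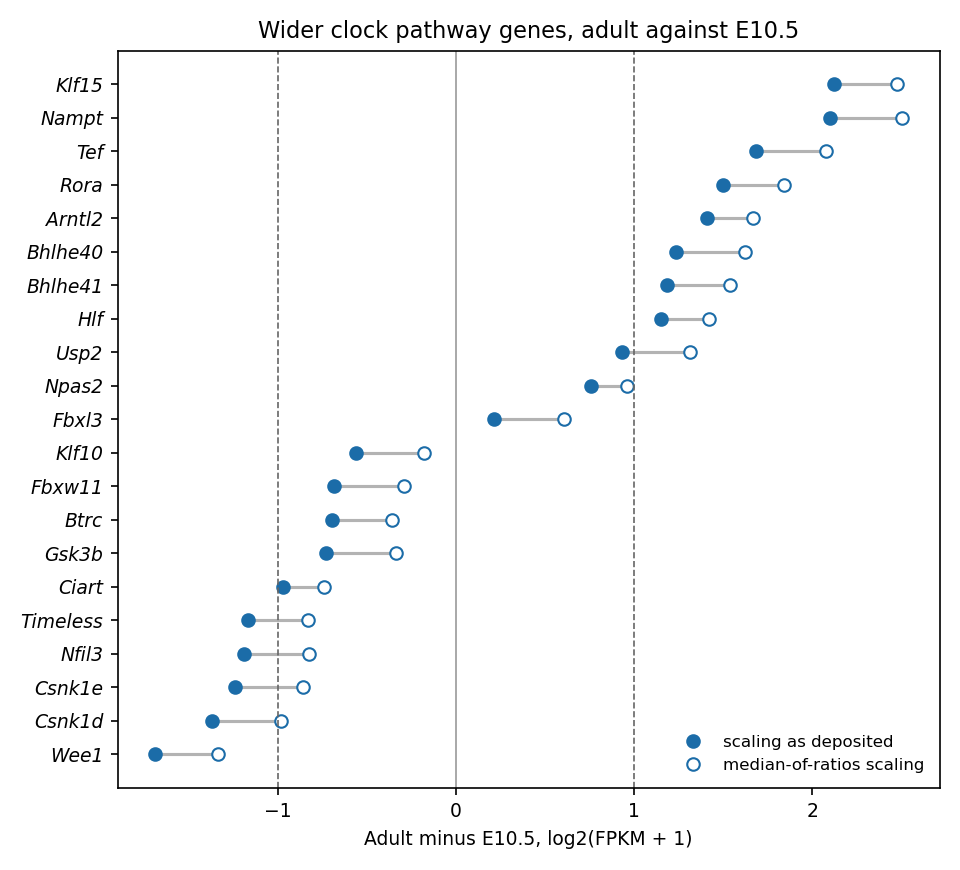
Difference from E10.5 to the adult on the log2(FPKM + 1) scale for 21 further clock pathway genes that reached 1 FPKM in any library, with the deposited scaling (filled points) and with median-of-ratios scaling (open points), dashed lines at -1 and 1. Klf15 and Nampt are farthest right at 2.12 and 2.10, and Wee1 is the single gene left of -1 under both scalings.

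Transcripts of some clock genes also respond to acute stimuli and to glucocorticoids, and both kinds of gene were therefore examined beside them. Of 8 immediate-early genes 2 were lower by 1 or more at E13.5 than at E10.5 (4.85% of all mRNA loci), as were Per1 and Nr1d1. These were Fos (16.6, 3.70 and 3.58 FPKM) and Egr1 (8.44, 1.55 and 3.56, named after its values were seen), while Jun stood at 19.6, 23.0 and 6.53 FPKM. From E10.5 to the adult 5 of the 8 were lower (27.3% of all loci) and 0 higher (14.8%), with a median difference of -1.25, and with median-of-ratios scaling 4 were lower (18.4%). Of 7 glucocorticoid-responsive genes 4 stood higher in adult than in E10.5 ventricle (14.8% of all loci) and 1 lower (27.3%), or 5 and 0 with median-of-ratios scaling (20.0% and 18.4%). Tsc22d3 was at 60.3, 103 and 35.1 FPKM, Fkbp5 at 7.10, 4.93 and 3.01 and Zbtb16 at 0.477, 0.198 and 11.1, so the list did not move in a single direction. From E10.5 to the adult the 7 genes had a median difference of 1.07, with 5 above 0 and 2 below. The part of these responses in the clock gene values was not tested.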

How the data were processed

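Strand-keeping libraries were made from total RNA of the heart ventricle at E10.5, E13.5 and 8 weeks, 1 per stage. Per the submitters' notes and methods, the authors mapped the read pairs to mm10 with TopHat2 and Bowtie, built transcripts in Cufflinks, both guided by a UCSC annotation and unguided, and deposited 1 FPKM value per merged locus and library, with the merged transcripts. Further version numbers, options and the handling of strand and of multiply mapped fragments are not given in the sources used here.

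The 10 genes were matched by name, and 24 of 24 further pathway genes by name or by RefSeq accession where the symbol was older. The members and lists were chosen with earlier results of these data known. FPKM are not counts, so no count test was run. Changes are differences of log2(FPKM + 1), counted past 1 and set beside the 12569 mRNA loci that reached 1 FPKM in any library. Fragments were estimated from the most frequent low value of unspliced single-transcript loci, taken as 1 fragment, and are approximate. Alternatives were a pseudocount of 0.1, 2 other scalings, a threshold of 2, no filter on low values, loci of 1 gene alone and, chosen after seeing the data, changes relative to loci of like transcript length. The scalings were median-of-ratios (factors of 1.07, 1.19 and 0.804) and library totals without globin and mitochondrial loci. Named genes were the 10 members, the 10 pathway genes with the largest change among those past 1, the 3 loci nearest to Dbp and to Arntl, genes overlapping a member and up to 3 genes of each other list in its written order. A pathway gene that this rule names is in the counts but is not reported here. Promoters came from RefSeq (GRCm38.p6), whose primary chromosomes are those of mm10. Python 3.11.15, numpy 2.4.6, pandas 2.3.3 and matplotlib 3.10.9 were used, and the counting was tested on simulated data.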

Additional observations from a re-analysis of the deposited data

Results flagged for a closer look

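An unspliced transcript without a RefSeq match was assembled within Per3 on the opposite strand (chromosome 4, 151017920 to 151018569, plus strand, 650 nt), and 316 nt of it lay over Per3 exons. It was singled out as a signal outside the comparisons above. The locus stood at 0.578, 0.943 and 0.112 FPKM in E10.5, E13.5 and adult ventricle, or about 5.5, 15.8 and 1.3 fragments. The embryonic values lie above the 3 fragments that a count of 0 allows, and the adult value lies below. Per3 was at 5.11, 3.42 and 15.2 FPKM in the same libraries. The part of reads from the other strand was not tested.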

How the results depend on the processing

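No paired analysis was possible because the labels number no replicates, and with single libraries none could be left out. Of 99 alternative values of counts, ratios and orders 18 moved, and of 126 for single genes and backgrounds 11 moved. Of these, 0 reversed a called change, while differences short of 1 changed sign under some settings for Per1, Per2 and Cry2 (adult against E10.5) and for Dbp and Nr1d2 (E13.5 against E10.5). A threshold of 2 left 3 clock genes higher in adult than in E13.5 ventricle and 3 higher than in E10.5 ventricle (Nr1d1, Nr1d2 and Dbp both times), and 0 lower at E13.5 than at E10.5. For the wider pathway that threshold left 3 higher and 1 lower in adult than in E13.5 ventricle, 3 and 0 in adult than in E10.5 ventricle, and 0 lower at E13.5 than at E10.5. A pseudocount of 0.1 added 1 clock gene, Cry1, on the lower side of each adult comparison, counted 3 clock genes lower at E13.5 than at E10.5 (Per2 added), and put 1 pathway gene higher at E13.5 than at E10.5. Beside loci of like length 1 clock gene (Nr1d1) remained lower at E13.5 than at E10.5, and Clock moved to -0.07. Median-of-ratios scaling left 1 pathway gene lower in adult than in E10.5 ventricle. The log2 ratio of Nr1d1 to Arntl at E13.5, -1.55, became -2.26 with a pseudocount of 0.1 and -2.39 with none. Where neighbours in the order of levels had to be 1.5-fold apart, 2, 3 and 3 of 9 pairs were told apart. Across the 3 scalings the median of the 10 genes lay between -0.57 and -0.31 for E13.5 against E10.5, between 0.98 and 1.49 for adult against E13.5 and between 0.80 and 1.18 for adult against E10.5. Without a filter on low values the shares of mRNA loci past 1 were 3.68% higher and 3.03% lower for E13.5 against E10.5, 8.14% and 20.0% for adult against E13.5, and 9.23% and 17.1% for adult against E10.5. Nr1d1 at E13.5, with about 56 fragments, is the clock gene value that depth limits most.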
